A study of Mus musculus with 6 samples.

Results

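The mitochondrial carriers are the proteins of the Slc25 family, which includes the uncoupling proteins. Members were taken by gene symbol (Slc25a followed by a number, or Ucp1 to Ucp3), and Slc25a13, Slc25a15 and Slc25a20 were left out. This gave 30 of the 17624 genes in the table, all Slc25a genes but Ucp2. Of the 50 such genes in the GENCODE annotation, 17 others were not analysed here.

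Livers came from C57BL/6 females of the F1 generation, of which 3 were iAsF1-F and 3 conF1-F. For iAsF1-F, the paternal drinking water held 250 ppb inorganic arsenic (iAs), as sodium arsenite, over the 3 weeks before mating with unexposed females, and for conF1-F it held none. The F1 mice themselves never received iAs. The labels give the livers as fed and the study gives a refeeding condition, and its samples as separate mice or litters. Values were RPKM, in which reads are scaled to the length of the transcript and to the size of the library.

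Carriers sit in the inner mitochondrial membrane, which is otherwise closed to charged metabolites. Each usually swaps one small molecule of the matrix for another of the cytosol, or takes a proton along. In liver they pass ADP, ATP and phosphate for respiration, citrate for fat synthesis, malate and aspartate for gluconeogenesis, and glycine and iron for heme. They are made in the cytosol and inserted through the TIM22 complex.

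The promoters below belong to the members on which the results turn: Slc25a3, among the most abundant and most even carriers, Slc25a47, whose values did not overlap between the groups, and Slc25a38, the member of smallest p. The bases are those before the RefSeq start that lie outside annotated exons (GRCm38.p6), on the strand of the gene. Slc25a3 lies at chr10:91124060-91124217, minus strand, Slc25a47 at chr12:108850879-108851128, plus strand, and Slc25a38 at chr9:120110132-120110373, plus strand. That of Slc25a47 lies inside the wider GENCODE bounds of the gene. Capitals mark a match to the motif of nuclear respiratory factor NRF1 (GCGC, A, any base, GCGC) in Slc25a3 and to CCAAT in Slc25a47, both as the reverse complement.
Slc25a3: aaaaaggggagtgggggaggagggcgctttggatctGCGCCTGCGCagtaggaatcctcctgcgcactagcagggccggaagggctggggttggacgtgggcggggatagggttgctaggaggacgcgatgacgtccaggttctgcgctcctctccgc
Slc25a47: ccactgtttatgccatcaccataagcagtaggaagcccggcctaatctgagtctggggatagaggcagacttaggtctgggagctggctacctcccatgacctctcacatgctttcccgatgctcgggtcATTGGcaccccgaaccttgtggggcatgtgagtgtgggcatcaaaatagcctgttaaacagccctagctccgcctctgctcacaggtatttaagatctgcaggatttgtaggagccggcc
Slc25a38: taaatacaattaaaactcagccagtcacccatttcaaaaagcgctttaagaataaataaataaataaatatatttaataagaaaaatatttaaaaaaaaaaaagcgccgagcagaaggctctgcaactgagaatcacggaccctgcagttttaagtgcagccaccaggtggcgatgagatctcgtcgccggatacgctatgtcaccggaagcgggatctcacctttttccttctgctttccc

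Promoters were at hand for 24 of the 30 members, and motifs were sought on both strands in the 250 bases before 29 starts. The NRF1 motif was found in 1 of them (Slc25a3), against 3.74% of 32851 promoters of that length. TGACGTCA, the cAMP response element, was found in those of Slc25a25 and Slc25a36, against 1.55% of all. CCAAT was present in 16 of the 29 (13 genes), against 33.8% of all, and CACGTG, the E-box, in 3, against 6.02%. Some genes have several starts, and those of Slc25a23 lie so close that the same CCAAT was counted for each. No member promoter held TGTTTAC, a FoxO motif, or AAGATGGCG, a YY1 motif, which occurred in 3.17% and 0.606% of all. None of the 6 motifs contains another. Promoters of the other 6 members were not analysed here.

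The sums of RPKM per liver lay between 295275 and 306096, and between 26.2% and 34.5% of all genes were listed at 0. The number of reads is unknown. The smallest values give a depth of 67.0%, 94.8% and 100% of the deepest library in iAsF1-F and 90.0%, 77.0% and 76.6% in conF1-F. Hepatocyte markers summed to 38503 to 43754 RPKM in iAsF1-F, against 36399 to 42926 RPKM in conF1-F, with all 10 above 0 in every liver, though Ass1 reached only 0.609 RPKM in the lowest. Lymphocyte markers (3 in the table) stayed below 1 RPKM in every liver, and those of adipocytes, muscle and pancreas were not analysed here. In whole liver, fewer cells of a type and less RNA per cell cannot be told apart.

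Of the 30 members, 22 averaged 1 RPKM or more and were tested along with the other genes that did (6448 in all). The test was limma on log2(RPKM + 1), and a gene was called at a Benjamini-Hochberg adjusted p under 0.05. None of the 22 carriers was called by limma, against 0.248% of all tested genes (16 genes). Unadjusted p was under 0.05 for Slc25a38 and Slc25a44, or 9.09% of the carriers, against 5.12% of all tested genes. Slc25a47 was wholly higher in iAsF1-F and Slc25a38 wholly lower, 1 carrier each. Of all 6448 genes, 5.83% lay wholly higher in iAsF1-F and 5.71% wholly lower. The fitted log2 fold change (iAsF1-F over conF1-F, here and below, on the scale of RPKM + 1, which understates changes of low genes) was above 0 for 10 of 22 carriers, against 49.7% of all tested genes. Its median was −0.02 over the carriers and −0.0015 over all tested genes, and the carriers' median ran from −0.04 to 0.06 with single livers left out. The count and median include 8 carriers listed at 0 in some livers. Over the 14 never listed at 0, 7 were above 0 and the median was 0.015.

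**Figure D1:**
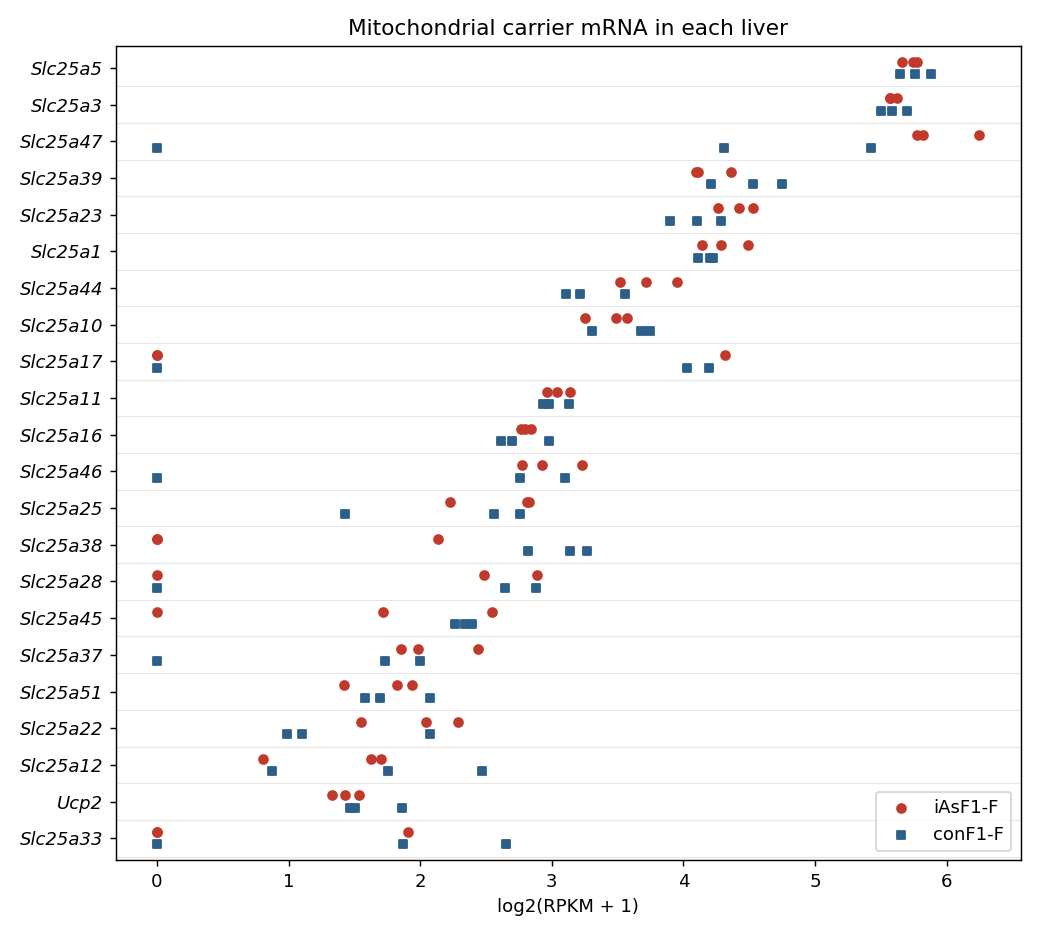
Log2(RPKM + 1) of the 22 tested carriers (rows, from the highest mean down) in each iAsF1-F liver (red circles) and conF1-F liver (blue squares). Slc25a5 and Slc25a3 lead with closely spaced points, and 8 carriers have points at 0.

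Levels spanned a wide range. Slc25a5 (mean 52.7 RPKM over 6 livers, place 495 among 17624 genes), Slc25a3 (47.3 RPKM) and Slc25a47 (40.8 RPKM) led the family, followed by Slc25a39 (19.6 RPKM), Slc25a23 (18.2 RPKM) and Slc25a1 (18.0 RPKM). Slc25a5 and Slc25a3 lay closer to each other than the range of either over the 6 livers, as did Slc25a39, Slc25a23 and Slc25a1. The first pair made up 31.02% to 35.5% of the summed family RPKM in iAsF1-F, against 37.1% to 40.2% in conF1-F, and Slc25a47 entered that sum. Over the 14 tested carriers never listed at 0, the sum was 196, 208 and 211 RPKM in iAsF1-F, against 195, 199 and 211 RPKM in conF1-F. The ranges of this sum overlapped nearly in full.

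A carrier listed at 0 in some livers was common. Of the 22, 8 (36.4%) were at 0 in 1 to 3 livers, against 19.6% of all tested genes listed at 0 in 1 to 5. By their decimals, many values are means over several entries of a gene. Among the 7 tested carriers with a single entry, 6 were listed at 0 at least once, against 24.7% of all tested genes of that kind (32.3% of those averaging 1 to 10 RPKM). Among the 3 with 2 entries, 2 were listed at 0, against 26.0% of such genes. Among the 12 with 3 or more entries, none was, against 7.82% of such genes. A 0 beside high values in livers of the same group may be a failed estimate, so no fold change over all 6 livers is given for these 8 carriers. A mean over several entries can be above 0 with an entry at 0. Values near 0 beside high ones also occur, as in conF1-F for Got2 (0.557 beside 40.8 and 40.7 RPKM). Whether carriers never listed at 0 hold such values was not tested.

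Slc25a5 encodes ANT2, the ADP/ATP translocase that lets ADP into the matrix and ATP out. It lies on the X chromosome of GRCm38 from 36795651 to 36798807, and is the only X-linked member here. Its level was 49.5, 52.5 and 53.7 RPKM in iAsF1-F, against 53.2, 49.2 and 58.1 RPKM in conF1-F. The groups overlapped, with a log2 fold change of −0.04 (95% interval −0.24 to 0.16, adjusted p = 0.950 from limma). A processed copy, Slc25a5-ps on chromosome 14, was listed at 2.43 to 4.13 RPKM in iAsF1-F, against 2.62 to 3.91 RPKM in conF1-F, and reads shared between the copies could be split by the counting.

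Slc25a3, on chromosome 10, encodes the phosphate carrier, which feeds ATP synthase. It stood at 46.5, 46.6 and 48.4 RPKM in iAsF1-F, against 46.9, 44.4 and 51.0 RPKM in conF1-F. With a log2 fold change of −0.01 (−0.19 to 0.17, adjusted p = 0.999 from limma), its 95% interval was the narrowest of the 14. With single livers left out, the value for Slc25a3 lay on both sides of 0.

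Slc25a4 (ANT1), the translocase typical of heart and muscle, was the member just under the minimum, with 0, 1.08 and 0.895 RPKM in iAsF1-F, against 1.09, 0.888 and 1.09 RPKM in conF1-F. The other 7 members under the minimum had a mean of 0.320 RPKM or less. Just above it were Slc25a33 and Ucp2, with means of 1.78 and 1.89 RPKM.

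Slc25a23 and Slc25a25 encode carriers that swap ATP-Mg for phosphate and are switched on by calcium, so that they set the pool of adenine nucleotides in the matrix. Slc25a23, on chromosome 17, was at 20.4, 22.2 and 18.2 RPKM in iAsF1-F, against 16.2, 18.5 and 13.9 RPKM in conF1-F. Only the lowest iAsF1-F value was below a conF1-F value, and the log2 fold change was 0.31 (−0.02 to 0.64, unadjusted p = 0.0631, adjusted p = 0.877 from limma). Slc25a25 was at 3.68, 6.11 and 6.03 RPKM in iAsF1-F, against 1.70, 5.77 and 4.90 RPKM in conF1-F. Its log2 fold change of 0.37 (−0.64 to 1.39, adjusted p = 0.877 from limma) became −0.04 without conF1-F replicate 1, the lowest liver.

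Slc25a17, the peroxisomal carrier of coenzyme A and other cofactors, lay either at 0 or well above it. Slc25a17 was listed at 0, 0 and 19.0 RPKM in iAsF1-F, against 15.3, 0 and 17.3 RPKM in conF1-F. The 3 livers above 0 came from both groups and lay within 15.3 to 19.0 RPKM. Slc25a33, a carrier of pyrimidine nucleotides, was listed at 2.76, 0 and 0 RPKM in iAsF1-F, against 0, 5.30 and 2.65 RPKM in conF1-F. Its relative Slc25a36 was at 0 in all but iAsF1-F replicate 1 (0.264 RPKM).

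**Figure D2:**
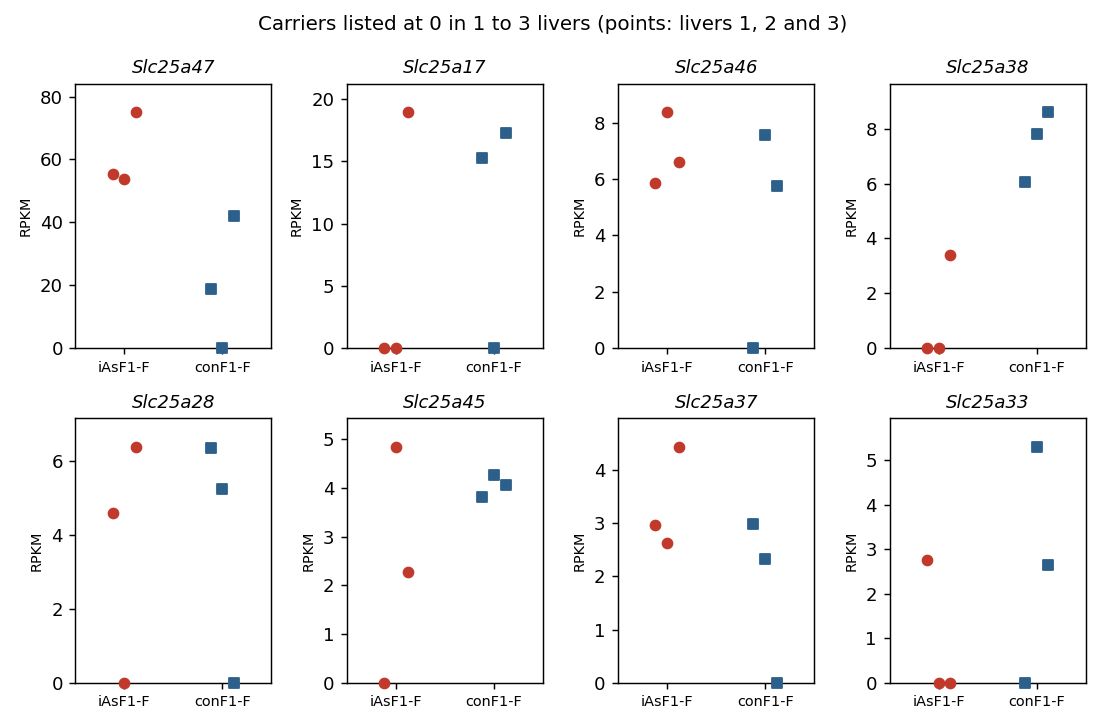
RPKM of the 8 tested carriers listed at 0 in 1 to 3 livers, with 1 panel per gene and points for livers 1, 2 and 3 of iAsF1-F (red circles) and conF1-F (blue squares). Slc25a17 has livers at 0 and above 15 RPKM in both groups, whereas the groups are apart for Slc25a47 and Slc25a38.

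Of the 4 carriers of cofactors, 2 were tested. Slc25a16, assigned to the coenzyme A supply of the matrix, was at 5.80, 6.16 and 5.96 RPKM in iAsF1-F, against 5.12, 6.88 and 5.50 RPKM in conF1-F. The iAsF1-F values lay within the conF1-F range (log2 fold change 0.04, −0.28 to 0.35, adjusted p = 0.990 from limma). Slc25a51, which brings NAD into mitochondria, was at 2.84, 2.55 and 1.68 RPKM in iAsF1-F, against 2.23, 1.99 and 3.22 RPKM in conF1-F, again overlapping (log2 fold change −0.05, −0.61 to 0.50). Slc25a42 (coenzyme A) was at 0 in every iAsF1-F liver and at 0, 0 and 0.842 RPKM in conF1-F.

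The 3 carriers of di- and tricarboxylates were above 0 in every liver. Slc25a1 exports citrate, the source of cytosolic acetyl-CoA for fatty acids and cholesterol. It was at 16.6, 18.5 and 21.5 RPKM in iAsF1-F, against 16.3, 17.7 and 17.4 RPKM in conF1-F, with a log2 fold change of 0.13 (−0.15 to 0.40, adjusted p = 0.877 from limma). The difference in means, 18.9 ± 2.45 against 17.1 ± 0.711 RPKM (SD, n = 3 each), was smaller than the SD of iAsF1-F. Slc25a10, which swaps malate or succinate for phosphate, was at 10.9, 10.2 and 8.52 RPKM in iAsF1-F, against 8.88, 12.4 and 11.8 RPKM in conF1-F (log2 fold change −0.14, −0.54 to 0.26). Slc25a11, the oxoglutarate/malate carrier of the malate-aspartate shuttle, was at 7.83, 7.24 and 6.82 RPKM in iAsF1-F, against 6.90, 6.63 and 7.76 RPKM in conF1-F (0.04, −0.22 to 0.29). For both genes the groups overlapped.

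Of the 8 carriers of amino acids or glutathione, 5 were tested and none was called by limma. Slc25a38 imports glycine, the substrate of the first step of heme synthesis. Its gene lies on chromosome 9 from 120110374 to 120124504. Slc25a38 was listed at 0, 0 and 3.40 RPKM in iAsF1-F, against 6.07, 7.82 and 8.61 RPKM in conF1-F. Every iAsF1-F value was below every conF1-F value (unadjusted p = 0.0118, adjusted p = 0.815 from limma, and an exact permutation p = 0.1, two-sided, the smallest that 3 against 3 can give). Its adjusted p ran from 0.0215 to 0.923 in 11 settings, and the lowest came without iAsF1-F replicate 3, which leaves iAsF1-F with 2 livers at 0 and no spread of its own. Taking out genes listed at 0, or taking 0s as missing, gave no value for Slc25a38.

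Erythroid markers, from cells that make much heme, had a lower sum in iAsF1-F. This sum over the 5 in the table (of 7 listed) was 237 to 367 RPKM in iAsF1-F, against 372 to 647 RPKM in conF1-F. The highest iAsF1-F sum was just under the lowest conF1-F sum. By their fitted fold change, 3 of the 4 tested were lower in iAsF1-F, with none called. The exception, Hba-a2, was at 91.4, 88.9 and 59.3 RPKM in iAsF1-F, against 162, 94.1 and 4.93 RPKM in conF1-F. In conF1-F replicate 3, the low one, Hba-a1, Hbb-bs and Hbb-bt were at 128, 157 and 150 RPKM. Alas2, the erythroid enzyme of the first heme step, was at 0.457 to 0.873 RPKM in iAsF1-F, against 0.553 to 0.936 RPKM in conF1-F. The part of these cells in the values of Slc25a38, Slc25a28 and Slc25a37 was not tested.

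Slc25a44 is a carrier of branched-chain amino acids, known from brown fat, and lies on chromosome 3 from 88410498 to 88425139. It was at 10.5, 12.1 and 14.5 RPKM in iAsF1-F, against 7.65, 8.26 and 10.8 RPKM in conF1-F. Only the lowest iAsF1-F liver was below a conF1-F liver, with means of 12.4 ± 2.02 and 8.90 ± 1.67 RPKM (SD, n = 3 each), or 1.39 times as high. On the log2 scale its fold change was 0.44 (0.00075 to 0.87, unadjusted p = 0.0497, adjusted p = 0.877 from limma). The exact permutation p was 0.2, two-sided. The log2 fold change stayed between 0.32 and 0.57 in 13 other settings, with adjusted p from 0.786 to 0.923. The unadjusted p from limma was under 0.05 in 9 of the 13.

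Slc25a39 takes glutathione into mitochondria. It was at 16.1, 16.3 and 19.5 RPKM in iAsF1-F, against 25.9, 22.1 and 17.5 RPKM in conF1-F, and the groups overlapped by 1 liver each. Its log2 fold change was −0.31 (−0.72 to 0.11, adjusted p = 0.877 from limma). Slc25a40, its close relative, was listed at no more than 0.12 RPKM.

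Slc25a22, a glutamate carrier, was at 3.11, 3.89 and 1.92 RPKM in iAsF1-F, against 0.985, 1.14 and 3.21 RPKM in conF1-F. Its log2 fold change was 0.57 (0.37 to 0.91 with single livers left out), with an interval from −0.36 to 1.504 that reached well below 0. Slc25a12 (aralar) is an aspartate/glutamate carrier of the malate-aspartate shuttle, typical of muscle and brain. It was at 0.744, 2.26 and 2.09 RPKM in iAsF1-F, against 0.830, 2.37 and 4.54 RPKM in conF1-F, a spread of 6.11 times over the 6 livers, the widest of the 14. Its log2 fold change of −0.32 (−1.54 to 0.90) turned to 0.06 without conF1-F replicate 3. Slc25a29 (basic amino acids) and Slc25a2 (ornithine) stayed below 1 RPKM, with Slc25a2 at 0.264, 0.139 and 0.131 RPKM in iAsF1-F, against 0.0492, 0.115 and 0 RPKM in conF1-F. The groups of Slc25a2 were apart, at levels too low to be tested.

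**Figure D3:**
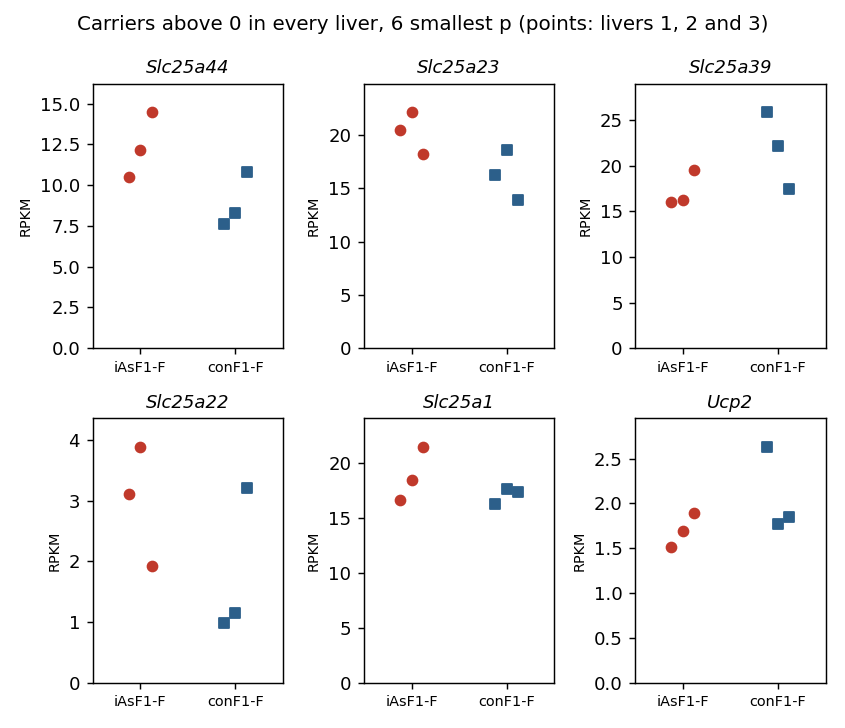
RPKM of the 6 carriers of smallest p among those above 0 in every liver, with points for livers 1, 2 and 3 of iAsF1-F (red circles) and conF1-F (blue squares). In each panel, including that of Slc25a44 with 10.5 to 14.5 RPKM in iAsF1-F against 7.65 to 10.8 RPKM in conF1-F, the groups overlap.

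Ucp2 was the only uncoupling protein among the members. Unlike Ucp1 of brown fat it is known mainly from macrophages and other cells outside the hepatocyte. It was at 1.52, 1.69 and 1.89 RPKM in iAsF1-F, against 2.63, 1.77 and 1.85 RPKM in conF1-F, with a log2 fold change of −0.18 (−0.62 to 0.26, adjusted p = 0.877 from limma). The high value was that of conF1-F replicate 1. Kupffer cell markers (4 of 6 in the table, all 4 lower in iAsF1-F by the fitted fold change, none called) summed to 44.9 to 168 RPKM in iAsF1-F, against 83.8 to 211 RPKM in conF1-F, and all 4 were highest in that same liver, with Clec4f at 42.7 RPKM and Cd5l at 65.1 RPKM. The lowest sum of each group holds markers listed at 0 (Vsig4 and C1qa in iAsF1-F replicate 1, C1qa in conF1-F replicate 3). Vsig4 was also at 0 in iAsF1-F replicate 3. The fitted directions of Vsig4 and C1qa thus include listed 0s, which may be failed estimates. The part of Kupffer cells in the Ucp2 values was not tested.

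The iron carriers, called mitoferrins, were both listed at 0 in some livers. Slc25a28 (mitoferrin 2, the widely expressed form) was listed at 4.60, 0 and 6.39 RPKM in iAsF1-F, against 6.37, 5.24 and 0 RPKM in conF1-F. Slc25a37 (mitoferrin 1, the erythroid form) was listed at 2.96, 2.63 and 4.43 RPKM in iAsF1-F, against 2.99, 2.32 and 0 RPKM in conF1-F. For both, the values above 0 overlapped between the groups.

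Slc25a47 is a carrier made mainly in hepatocytes, and its gene lies on chromosome 12 from 108836046 to 108856815. It was listed at 55.4, 53.6 and 75.1 RPKM in iAsF1-F, against 18.8, 0 and 41.9 RPKM in conF1-F, and the lowest iAsF1-F value exceeded the highest conF1-F value. The spread within conF1-F was wide, and Slc25a47 was not called by limma (unadjusted p = 0.113, adjusted p = 0.877). The exact permutation p was 0.1, two-sided, the smallest that 3 against 3 can give, so that test could not pass. With 0s taken as missing, a setting chosen after the data were seen, the log2 fold change of Slc25a47 was 1.08, on 2 conF1-F livers, with an adjusted p of 0.813 (limma). Leaving out conF1-F replicate 2, the liver at 0, uses the same livers for this gene and so had to give the same 1.08. The adjusted p lay between 0.813 and 0.923 in 12 settings (limma). Slc25a29, whose GENCODE bounds end 162 bases from those of Slc25a47 on the other strand, was listed at 0.194, 0.904 and 0 RPKM in iAsF1-F, against 0.345, 0.162 and 0 RPKM in conF1-F.

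The other 3 members have less settled roles. Slc25a46 acts in the outer membrane, where it bears on mitochondrial shape, and was listed at 5.85, 8.38 and 6.61 RPKM in iAsF1-F, against 0, 7.57 and 5.75 RPKM in conF1-F. Slc25a45 was listed at 0, 4.84 and 2.28 RPKM in iAsF1-F, against 3.82, 4.27 and 4.06 RPKM in conF1-F. Slc25a48 was above 0 only in iAsF1-F replicate 1 (1.92 RPKM). The groups of Slc25a46 and Slc25a45 overlapped.

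**Figure D4:**
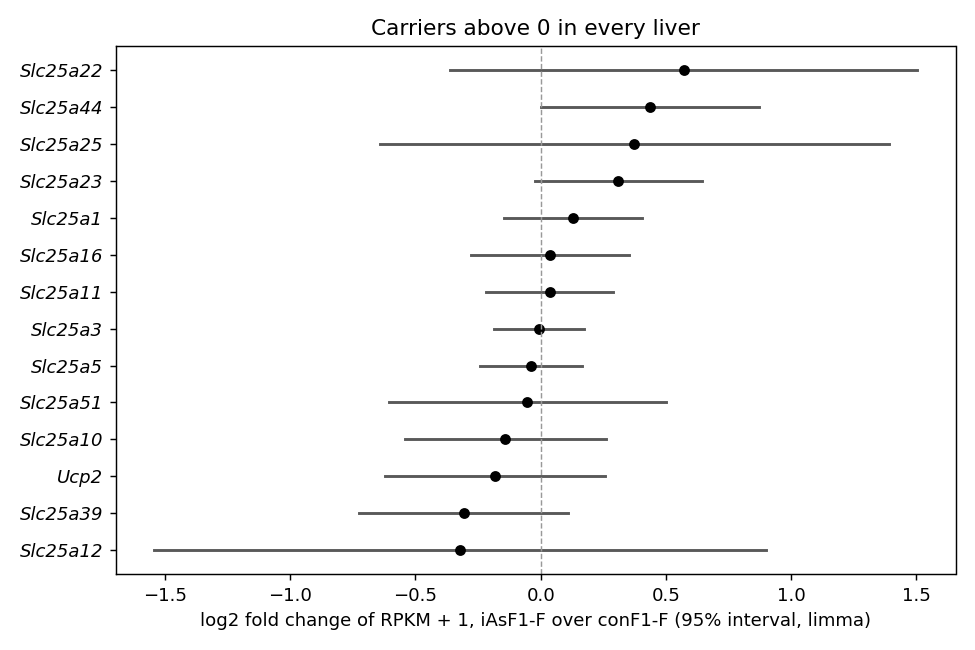
Log2 fold change of RPKM + 1 (iAsF1-F over conF1-F, x axis) with its 95% interval from limma for the 14 tested carriers above 0 in every liver. Slc25a44 alone has an interval that lies above 0 (0.00075 to 0.87), and those of Slc25a3 and Slc25a5 are the narrowest.

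Of the 22 tested carriers, 8 share exon bases with a gene on the other strand, among them Ucp2 with Dnajb13, Slc25a11 with Rnf167 and Slc25a25 with Naif1. Whether the counting used the strand is not given in the sources used here, so reads of such pairs cannot be told apart. On the same strand, Slc25a47 shares exon bases with Mir345, and Slc25a51 with Gm25692, which the strand could not separate.

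Of 14 tested genes for the import of carriers (outer membrane receptors and pore, small TIM chaperones and the TIM22 complex), none was called by limma and none had an unadjusted p under 0.05, and the median log2 fold change was −0.01. Timm29, a TIM22 subunit, was the only one with groups apart, at 11.2, 11.2 and 10.7 RPKM in iAsF1-F, against 12.6, 11.7 and 12.8 RPKM in conF1-F (log2 fold change −0.15, SE 0.08, adjusted p = 0.877 from limma). Groups were apart, in either direction, for 11.5% of all tested genes. Tomm70a, the receptor for carrier precursors, was at 21.9 to 27.9 RPKM in iAsF1-F, against 29.3, 0 and 26.9 RPKM in conF1-F.

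Of 16 tested genes for other transport across mitochondrial membranes, none was called, none had an unadjusted p under 0.05, and 6 were listed at 0 in some livers. Vdac1, the main pore of the outer membrane, was at 16.7 to 17.8 RPKM in iAsF1-F, against 16.0 to 18.1 RPKM in conF1-F. Mpc1, a subunit of the pyruvate carrier that gluconeogenesis from pyruvate needs, was at 27.0, 18.1 and 31.7 RPKM in iAsF1-F, against 30.1, 20.6 and 0.218 RPKM in conF1-F. Its partner Mpc2 was at 31.8 to 38.5 RPKM in iAsF1-F, against 31.9, 2.06 and 29.7 RPKM in conF1-F. The low values of Mpc1 and Mpc2 fell in different livers.

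Of the enzymes of the malate-aspartate and glycerophosphate shuttles, 5 were tested and none was called by limma. Got1, the cytosolic aspartate aminotransferase, was at 38.7, 23.7 and 24.8 RPKM in iAsF1-F, against 21.1, 19.3 and 11.7 RPKM in conF1-F. The groups were apart, as for 11.5% of all tested genes in either direction, and Got1 did not pass (log2 fold change 0.72, SE 0.29, unadjusted p = 0.0529, adjusted p = 0.877 from limma). Mdh2 was at 22.6 to 26.5 RPKM in iAsF1-F, against 22.7 to 27.0 RPKM in conF1-F. Got2 was at 38.3 to 42.6 RPKM in iAsF1-F, against 0.557, 40.8 and 40.7 RPKM in conF1-F.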

How the data were processed

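RNA-seq of 3 iAsF1-F and 3 conF1-F livers was compared. The authors deposited RPKM values for each liver. From the notes of the submitters, the build was mm10 and the tools included DESeq2 1.8.2, HTSeq and STAR 2.5.3a. The maker of the RPKM values is not given in the sources used here. The whole table equalled the single-library tables in all 105744 cells, and 13 cells shown as dates or times (none of a carrier) were converted back to numbers.

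The files used here hold no counts, so log2(RPKM + 1) was fitted by limma 3.58.1 (R 4.3.3) with group as the only term and a variance trend, over the 6448 genes that averaged 1 RPKM or more. edgeR, planned for counts, could not be run. P-values were adjusted over all of them. With 3 livers per group, the fit recovered 59.4% of genes changed by 1 and 82.5% of those changed by 2 (log2) in simulated data with 200 of 5187 genes changed, in which no value had been listed at 0. Recovery after adjustment depends on the share of genes changed, which is unknown for the livers. These values therefore do not give the recovery for the carriers, some of which are listed at 0.

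Replicates are as the labels give them. Members with groups apart or p under 0.05, the 6 most abundant, those next to the minimum and those listed at 0 are given for every liver. The values of 1 member under the minimum are not reported here. Members and lists were chosen with earlier results of these data known. Positions are from GENCODE M21 (GRCm38) and promoters from RefSeq. Alternatives were a pseudocount of 0.1, no filter, a robust fit, a replicate block, rescaling, removal of genes listed at 0, 0s taken as missing (added after the data were seen), and each liver left out. Python 3.11.15, pandas 2.3.3 and matplotlib 3.10.9 were used.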

Additional observations from a re-analysis of the deposited data

How the results depend on the processing

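No carrier was called by limma in the 13 other settings, except Slc25a38 without iAsF1-F replicate 3 (an adjusted p of 0.0215, with both other iAsF1-F livers listed at 0). With single livers left out, 0 to 1 carriers and 26 to 38 genes in all were called. In those fits 1 to 5 carriers had an unadjusted p under 0.05, against 261 to 340 of all tested genes. The 5, of 22 carriers, came without conF1-F replicate 3, against 326 of 6479 genes. Without genes listed at 0, 1 of 14 carriers had such a p, against 301 of 5187 genes, and 5 genes were called in all. With 0s taken as missing, chosen after the data were seen, 5 genes were called.

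With the replicate number as a block, 0 genes were called by limma, against 16 without it, and 281 and 330 had an unadjusted p under 0.05. In that fit 3 carriers had such a p (Slc25a23, Slc25a38 and Slc25a44). Deviations of livers with the same number correlated at −0.07, 0.02 and 0.01 over genes, and those of livers with different numbers at −0.07 to 0.06. Whether livers of the same number shared a litter, a cage or a day was not tested.

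Of 16 carriers followed through the settings, 7 reversed in at least 1 of them, all among the 14 never listed at 0. Slc25a38 and Slc25a47, whose groups were apart, could not reverse when 1 liver was left out, and had values in 11 and 12 settings. With single livers left out, the log2 fold change ran from −0.0522 to 0.0460 for Slc25a3, −0.10 to 0.0207 for Slc25a5, −0.00995 to 0.0942 for Slc25a11, −0.73 to 0.0645 for Slc25a12, −0.0377 to 0.14 for Slc25a16, −0.0352 to 0.63 for Slc25a25 and −0.16 to 0.10 for Slc25a51. That of Slc25a3 was 0.0033 after rescaling by median ratios. The cause was not tested. The number of reads is unknown, and 3 livers per group limit the precision.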
